A study of Mizuhopecten yessoensis with 6 samples.

Results

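The genes described here are nuclear genes of the scallop Mizuhopecten yessoensis, known as the Yesso scallop, that were already expressed in gill at normal oxygen and stood higher under hypoxia. They were chosen on the measured values: at least 1 FPKM in every normal library, a mean below 500 FPKM over all 6 libraries, and a lowest hypoxia value at least 2 times the highest normal value. FPKM is the number of fragments scaled to gene length and to the library total. Of 20815 genes listed, 97 met this rule.

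Low oxygen in water is a stress that bivalves meet with their gills first, because the gill is where gas is exchanged and where water passes over the tissue. In animals generally, a drop in oxygen stabilises the hypoxia-inducible factor (HIF), a transcription factor whose alpha subunit is otherwise marked for breakdown by oxygen-dependent prolyl hydroxylases, and HIF then raises genes of glycolysis, oxygen supply and cell survival.

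The libraries came from 3 scallops kept for 24 h at a dissolved oxygen of 1 mg/L (hypoxia) and 3 kept for 24 h at 9 mg/L (normal). Each library was made from the gill of 1 scallop picked at random from its group, so the spread given is between scallops. How many tanks each group had is not stated, and the effects of a tank and of its oxygen level cannot be told apart. RNA comes from whole gill, in which more RNA per cell and more cells of a type cannot be told apart. The library total, worked out from the FPKM values, was 26695289 to 27900042 reads under hypoxia and 24062577 to 25930694 in normal gill. Of this total, 99.6 to 99.7% fell on the genes listed, so it need not be the number of reads sequenced. A total exactly 2 times as large also gave whole reads in every library, with every count doubled, and the smaller total was used here.

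All 97 identifiers were found among the RefSeq genes of assembly ASM211388v2, all as protein-coding genes. RefSeq's table gives each of them no symbol beyond its LOC identifier and no description, so no role is given to any of them, and the gill label could not be checked against cell markers. The rule narrowed the list in steps. Of 20804 nuclear genes, 11931 reached 1 FPKM in every normal library, and 11786 of these also stayed below the mean of 500 FPKM. The 2-fold limit kept 0.823% of those 11786 genes. The upper limit on the mean removed 145 genes, and 0 of them met the 2-fold limit. A further 71 genes met the 2-fold limit with at least 1 FPKM in every hypoxia library but fell below 1 FPKM in a normal library, and they are not counted here. The opposite rule, with normal values at least 2 times those under hypoxia, was met by 18 of 12294 genes.

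Because the same libraries chose the genes, the higher level under hypoxia is a description and was not tested. The median member had a mean of 30.8 FPKM under hypoxia and 6.18 FPKM in normal gill. The ratio of the group means ran from 2.24 to 65.7, with a median of 4.36. It was below 3 in 20 members, from 3 to below 5 in 42, from 5 to below 10 in 22, and 10 or more in 13. The change in log2(FPKM + 1) had a median of 1.92 over the members, against 0.03 over all 13744 genes tested. The 12 members with the widest gap, measured as the lowest hypoxia value over the highest normal value, ran from 5.84 to 48.6 on that ratio, and 57 members lay below 3.

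**Figure D1:**
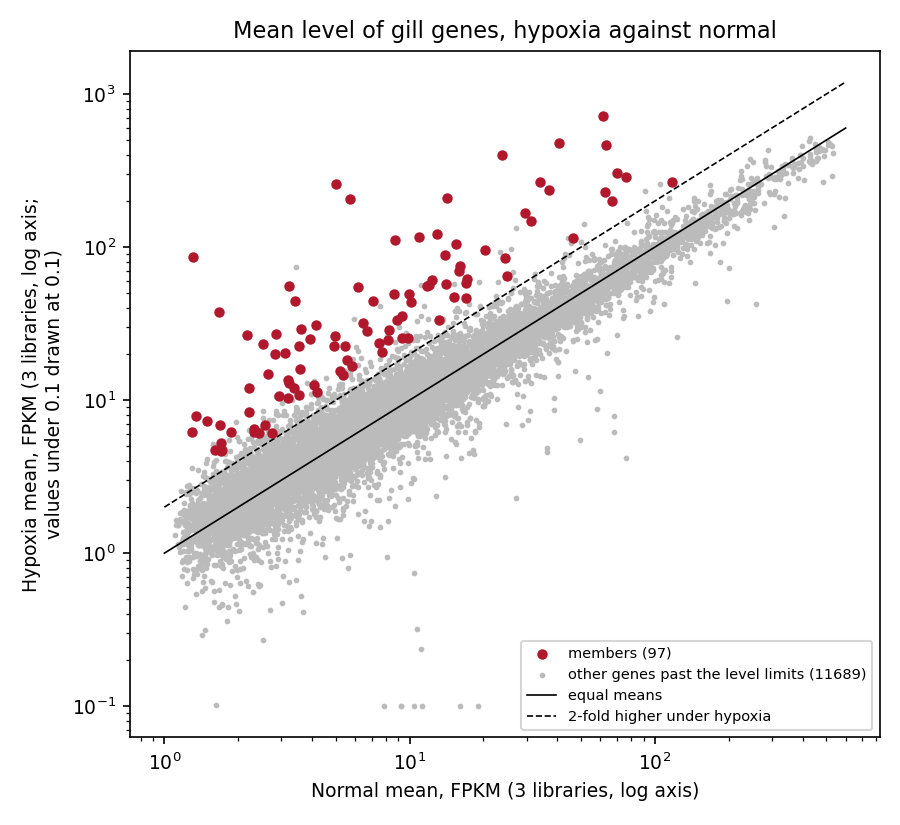
Mean FPKM under hypoxia (vertical, log axis) against mean FPKM in normal gill (horizontal, log axis), 3 libraries each; red points are the 97 members and grey points the 11689 other genes past the level limits. The members lie above the dashed 2-fold line at every normal level from about 1.29 to 118 FPKM, since the rule put them there.

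The widest gap belonged to LOC110446317. It had 88.7, 92.1 and 77.2 FPKM in the hypoxia libraries, against 1.10, 1.59 and 1.24 FPKM in the normal libraries. Its values were close within each group, and the group means of 86.0 ± 7.84 and 1.31 ± 0.25 FPKM (SD, n = 3 each) differed 65.7-fold, the largest ratio of any member. By mean level it stood at place 718 of the 20804 nuclear genes under hypoxia, against place 12935 in normal gill.

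LOC110461223 had 314, 243 and 216 FPKM under hypoxia, against 10.4, 1.32 and 3.38 FPKM in normal gill. The normal scallops differed widely, with replicate 1 the highest, and the lowest hypoxia value was 20.8 times that replicate. Its log2 change of 5.71 (SE 0.55) was the largest of the members on the log2(FPKM + 1) scale. LOC110447376 had 149, 251 and 222 FPKM under hypoxia and 7.17, 3.52 and 6.38 FPKM in normal gill, a gap of 20.8 times.

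Members with a low normal level made up part of the widest gaps. LOC110463816 had 32.8, 36.5 and 42.9 FPKM under hypoxia and 1.41, 1.53 and 2.08 FPKM in normal gill. Its normal values rest on 49, 52 and 67 reads, the first of which was the lowest count of any member in any library. LOC110466345 had 48.98, 53.2 and 63.7 FPKM under hypoxia and 3.20, 2.72 and 3.71 FPKM in normal gill. Both had tight groups, with an SD of 5.11 FPKM under hypoxia and 0.36 FPKM in normal gill for the first and of 7.60 and 0.49 FPKM for the second. LOC110460648 was more even under hypoxia, at 25.8, 21.5 and 22.9 FPKM, than in normal gill, at 1.44, 3.63 and 2.49 FPKM. LOC110449704 had 36.7, 50.4 and 45.7 FPKM under hypoxia and 4.58, 2.95 and 2.66 FPKM in normal gill.

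**Figure D2:**
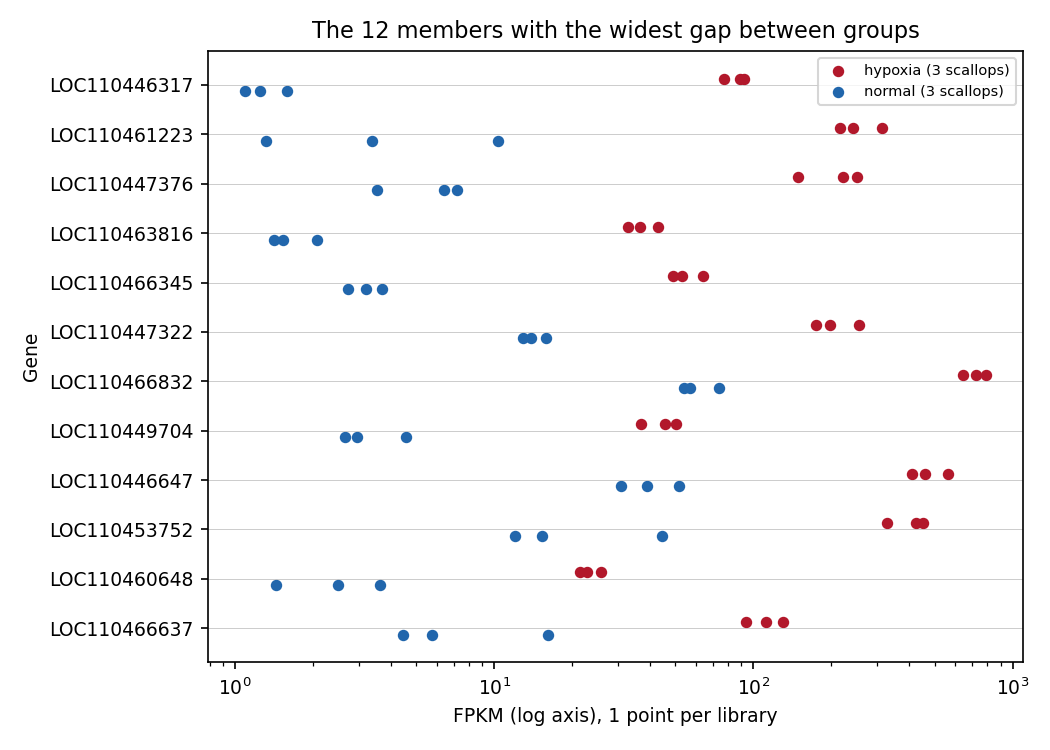
FPKM (log axis) of the 12 members with the widest gap in each library, 1 point per scallop, red for hypoxia and blue for normal. The groups are separated in every row by the rule; the blue points spread most in LOC110461223, LOC110453752 and LOC110466637, where normal replicate 1 is the highest.

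Some members were abundant transcripts rather than rare ones. Of the 97, 21 reached a mean of 100 FPKM or more under hypoxia, against 1 in normal gill. In the order of mean levels over the nuclear genes, 16 members stood among the 500 highest under hypoxia, against 0 in normal gill, and the median member stood at place 1917 and place 6776. The rule puts every member higher under hypoxia, so the direction of these differences was set by the choice of genes. The highest member was LOC110466832, with 720, 645 and 791 FPKM under hypoxia and 73.6, 53.8 and 56.9 FPKM in normal gill. Its mean ratio was 11.7, and it alone gave 10.3% of the summed gain in mean FPKM over the 97 members. LOC110446647 followed with 564, 408 and 461 FPKM under hypoxia and 51.6, 38.9 and 31.0 FPKM in normal gill.

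LOC110454286 had 420, 495 and 487 FPKM under hypoxia and 93.5, 51.0 and 44.5 FPKM in normal gill. LOC110453752 had 451, 329 and 426 FPKM under hypoxia and 44.3, 15.3 and 11.99 FPKM in normal gill. In both, normal replicate 1 stood apart above the other normal scallops, and in LOC110453752 it was 2.90 times the next. LOC110454961 had 299, 280 and 341 FPKM under hypoxia and 99.6, 48.3 and 62.1 FPKM in normal gill, and LOC110445184 had 318, 251 and 228 FPKM under hypoxia and 45.7, 28.8 and 27.2 FPKM in normal gill. LOC110454864, with an exon length of only 586 bases the shortest member, had 242, 358 and 258 FPKM under hypoxia and 68.0, 87.9 and 72.9 FPKM in normal gill.

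LOC110443173 was the member with the highest normal level and at the same time nearly the smallest ratio. It had 252, 272 and 271 FPKM under hypoxia and 121, 116 and 116 FPKM in normal gill, so that the means of 265 ± 11.3 and 118 ± 2.66 FPKM (SD, n = 3 each) differed 2.25-fold. Its normal values varied less than those of any other member, with a coefficient of variation of 2.26%. Across the 97 members, the normal mean and the ratio of the means had a Spearman rho of 0.0014. The normal mean is part of that ratio and the rule set limits on both, so nothing is read from this rho. It is a description across genes measured in the same 6 libraries, and genes are not independent replicates.

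The gain was spread unevenly over the members. In summed FPKM the 97 genes held 7829, 7613 and 7674 under hypoxia and 1579, 1229 and 1222 in normal gill. The hypoxia libraries lay close to one another, while normal replicate 1 lay above the other normal libraries. As a share of the library total worked out from the FPKM values, the members held 2.36, 2.23 and 2.24% under hypoxia. In normal gill they held 0.490, 0.382 and 0.373%. Of the summed gain in mean FPKM, the 5 members with the largest gain gave 33.5%, the 10 largest gave 50.4% and the 20 largest gave 70.9%.

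**Figure D3:**
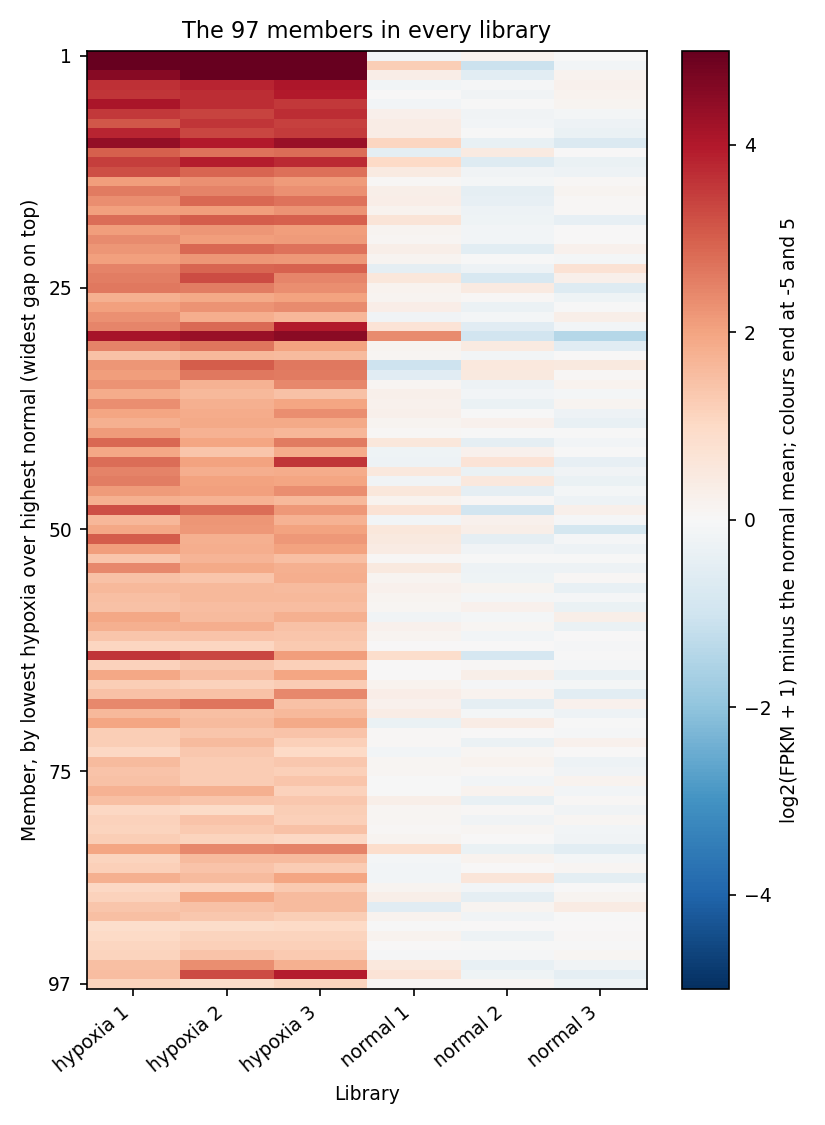
Every member (rows, widest gap on top) in every library (columns, hypoxia left), as log2(FPKM + 1) minus the member's normal mean. The hypoxia columns are red throughout by the rule, and replicate 1 is the highest of the normal columns in 60 of the 97 rows.

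Normal replicate 1 was the normal scallop that most often stood nearest to hypoxia. It was the highest of the normal libraries in 60 of the 97 members (61.9%), replicate 2 in 22 and replicate 3 in 15. Among the 11689 other genes past the level limits, replicate 1 was the highest normal library in 35.5%, replicate 2 in 37.3% and replicate 3 in 27.1%. Among members with a normal mean of 5 FPKM or more, it was highest in 38 of 56. The hypoxia libraries shared the top place more evenly among the members, with 34, 33 and 30 for replicates 1, 2 and 3. Since the highest normal value sets the limit of the rule, this scallop also bore most on how many genes met it. Without it 188 genes meet the rule, with the 97 among them. It was 139 without normal replicate 2 and 120 without normal replicate 3. Leaving out a hypoxia library gave 118 to 125 genes. With a library removed, fewer values have to clear the 2-fold limit, and each of these lists kept all of the 97. What sets normal replicate 1 apart was not tested.

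In 9 members a single normal library was at least 2 times the next, and in 7 of these it was replicate 1. As shares of the members, these were 7.22% for replicate 1 and 1.03% each for replicates 2 and 3. Among the 11689 other genes past the level limits, the shares were 2.26, 1.65 and 0.804% for replicates 1, 2 and 3. The clearest member was LOC110449623, with 102, 116 and 134 FPKM under hypoxia and 29.4, 2.05 and 1.21 FPKM in normal gill. Normal replicate 1 was 14.4 times the next normal library there, and the lowest hypoxia value was still 3.45 times that replicate. A lesser case was LOC110466637, with 93.9, 130 and 112 FPKM under hypoxia and 16.1, 4.46 and 5.74 FPKM in normal gill. LOC110445416 was the 1 member with normal replicate 3 in that place, with 23.3, 31.3 and 32.6 FPKM under hypoxia and 2.13, 2.60 and 6.08 FPKM in normal gill.

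Members varied less under hypoxia than in normal gill. The coefficient of variation over 3 scallops had a median of 13.6% under hypoxia and 23.2% in normal gill, and it was the higher in normal gill in 74 of 97 members (76.3%). The other genes past the level limits had medians of 14.7% and 18.9%, with the normal value the higher in 61.1%. The rule bears on these spreads, because it removes genes with a low hypoxia value or a high normal value. It also gives the members more reads under hypoxia, 615561 to 629453 per library, against 89750 to 127008 in normal gill. The spreads were not matched for level. The steadiest members under hypoxia were LOC110456604, with 46.2, 47.7 and 46.6 FPKM against 18.5, 15.4 and 17.1 FPKM in normal gill, LOC110451788 and LOC110451391. LOC110451788 had 48.3, 48.0 and 46.2 FPKM under hypoxia and 17.4, 16.6 and 11.4 FPKM in normal gill. LOC110451391 had 24.2, 25.02 and 25.4 FPKM under hypoxia and 8.77, 9.38 and 6.24 FPKM in normal gill.

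The least steady members were led by hypoxia replicate 3. LOC110448084 had 70.1, 91.3 and 202 FPKM under hypoxia and 20.2, 7.81 and 10.9 FPKM in normal gill. LOC110448199 had 24.1, 13.8 and 42.9 FPKM under hypoxia and 2.03, 4.79 and 1.75 FPKM in normal gill. LOC110447112 had 7.74, 27.8 and 44.2 FPKM under hypoxia and 3.76, 1.54 and 1.19 FPKM in normal gill, the widest relative spread of the members at 68.7% under hypoxia. In these the hypoxia scallops differ among themselves by a factor that exceeds the gap between the groups, except in LOC110448084, where the factor is the smaller.

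The fit of limma to all genes gives the background for the members. With Benjamini-Hochberg adjustment over 13744 genes at a threshold of 0.05, 203 genes were called higher under hypoxia, which is 1.48% of the genes tested, and 59 were called lower (0.429%). Of the 97 members, 89 were among the genes called higher. The rule used the same contrast, so nothing is read from that count. It was 39, 32 and 36 without hypoxia replicates 1, 2 and 3, where 0.335%, 0.284% and 0.314% of all genes tested were called higher. It was 81, 63 and 55 without normal replicates 1, 2 and 3, where 1.28%, 0.78% and 0.533% of all genes were called higher. These fits had 5 libraries each, and both the members' count and the share of all genes moved with them.

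Under other settings the members' count was read against its own background in the same way. With no filter on low values it was 67, against 0.476% of all genes called higher. With a filter at a mean of 5 FPKM it was 79 of 83 members tested, against 2.22% of genes, and with voom on recovered reads 88, against 1.38%. A pseudocount of 0.1 gave 85, against 1.19%, and median ratio scaling gave 87, as did quantile normalization, each against 1.21%. The rule leaves out part of the genes that limma called higher. The 89 members make up 43.8% of the 203 genes, 41 more had under 1 FPKM in a normal library, and 73 met the level limits with a gap below 2. Hypoxia values lay above all normal values in 1765 (15.0%) of the 11786 genes past the level limits. In 1402 of the same 11786 genes they lay below all normal values. The 1765 are the wider field from which the 2-fold limit took its 97.

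For 8 members the limma adjusted p lay above the threshold. LOC110449623 and LOC110447112, given above, were at 0.089 and 0.085. LOC110460332 had 10.1, 10.3 and 20.4 FPKM under hypoxia and 4.17, 3.62 and 1.80 FPKM in normal gill, with a limma adjusted p of 0.065. The other 5, LOC110463798, LOC110455912, LOC110447099, LOC110441535 and LOC110448642, lay just above the threshold, at 0.051 to 0.053. They were named after their values were seen.

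The values at the 2-fold limit show how close genes on its 2 sides lie. Just inside were LOC110463070, with a gap of 2.05, 6.43, 5.52 and 6.39 FPKM under hypoxia and 2.67, 2.69 and 1.94 FPKM in normal gill, LOC110447112 with a gap of 2.06, and LOC110455401 with a gap of 2.07. LOC110455401 had 16.5, 30.3 and 20.6 FPKM under hypoxia and 8.01, 3.83 and 4.59 FPKM in normal gill. Just outside were LOC110463635, LOC110448848 and LOC110442853, with gaps of 1.998, 1.99 and 1.98. LOC110463635 had 32.9, 39.7 and 26.2 FPKM under hypoxia and 8.77, 13.1 and 10.4 FPKM in normal gill. A further 154 genes past the level limits had a gap from 1.5 to below 2.

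What the members share beyond their levels was sought in their gene structure, which the rule did not use. The exon length of each gene was recovered from its FPKM values, and the span from start to end was taken from the RefSeq table. No source used here names the build behind the deposited values. As a check that the gene models match, the recovered exon length equalled the span to the base in 814 of 20802 nuclear genes, as in genes without introns, and was longer than the span in 0. The members had about the same amount of exon as the other genes past the level limits, with medians of 3181 and 3023 bases. Their spans were shorter, with medians of 11007 and 16069 bases.

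The share of the span that lies outside exons, which is mostly intron, therefore had a median of 64.9% in the members and 81.3% in the 11688 other genes with a recovered length. Of the 97 members, 73 lay below the median of the other genes (75.3%). The difference was present at each normal level. Members with a normal mean below 5 FPKM had a median of 67.5%, against 80.2% in the other genes. From 5 to below 20 FPKM it was 67.8% against 81.7%, and at 20 FPKM or more it was 54.6% in 17 members against 82.0% in 2580 other genes. Without the genes whose exon length equals the span, the medians were 67.2% and 81.8%. No test was run, since genes are not replicates of a condition, and this comparison was chosen after the data were seen.

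The same measure was set beside genes that resemble the members. Genes with a gap from 1.5 to below 2 had a median of 77.4%, and genes with a gap from 1 to below 1.5 had 83.1%. The 71 genes that met the 2-fold limit from below 1 FPKM had 78.0%, and the 18 genes of the opposite rule had 74.999%. Within the members the share did not fall steadily with the gap: it was 68.8% in the 40 members with a gap of 3 or more, 64.2% in the 57 below 3, and 56.4% in the 12 with the widest gap. Of the 21 members at a mean of 100 FPKM or more under hypoxia, 16 lay below the median of the other genes, and their own median was 56.3%. LOC110466832 and LOC110454286 had an exon length equal to the span, at 1575 and 3169 bases, as had 3 less abundant members, LOC110455954, LOC110451391 and LOC110464193. LOC110443173 had 27.7% outside exons and LOC110446647 had 40.8%. The 5 of the 21 above the median of the other genes were LOC110453670 at 81.6%, LOC110461223 at 82.6%, LOC110447345 at 85.0%, LOC110449623 at 87.7% and LOC110454864 at 88.8%.

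**Figure D4:**
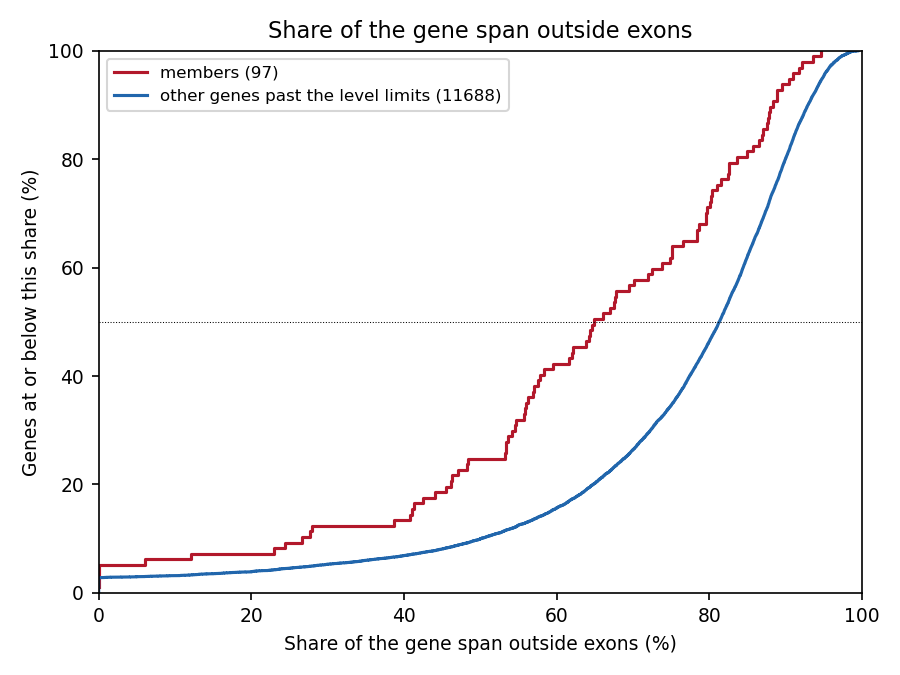
Cumulative share of genes (vertical, %) at or below a given share of the gene span outside exons (horizontal, %), red for the 97 members and blue for the 11688 other genes past the level limits with a recovered length. The red line runs to the left of the blue one, crossing the 50% line at 64.9% against 81.3%.

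Few members lay next to one another. Taking neighbours as tested genes with no other tested gene between them in the RefSeq table, 7 members formed 3 runs, 1 of 3 genes and 2 of 2 genes. Of the 170 different tested genes next to a member, 7 were members themselves (4.12%), where members make up 0.706% of the genes tested. The table does not name scaffolds, so ends were placed where positions start again, and some neighbours may lie on different scaffolds. Reads that fit near-identical neighbouring genes could be split between them by the authors' counting, and this was not tested.

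The run of 3 held LOC110447376, LOC110447345 and LOC110447322. With overlapping spans left out, 6 members stayed in 3 adjacent pairs, against 7 members in 4 pairs. The pair that dropped out lies in this run, since a run of 2 would have lost both members. How reads in the shared stretch were counted is not stated. LOC110447345 had 179, 172 and 147 FPKM under hypoxia and 31.9, 39.3 and 17.8 FPKM in normal gill. LOC110447322 had 256, 197 and 174 FPKM under hypoxia and 12.9, 13.9 and 15.9 FPKM in normal gill. The order of the hypoxia libraries was not the same within the run, as replicate 1 was lowest in LOC110447376 and highest in the other two. The tested genes on both sides of the run were higher under hypoxia as well but failed the floor of the rule. LOC110447383 had 44.6, 61.1 and 46.8 FPKM under hypoxia and 1.34, 0.68 and 1.84 FPKM in normal gill, and LOC110447397 had 41.8, 33.0 and 32.5 FPKM under hypoxia and 0.93, 1.00 and 0.26 FPKM in normal gill.

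The other runs were smaller in effect or less steady. LOC110450542 had 71.4, 64.3 and 59.5 FPKM under hypoxia and 28.3, 21.99 and 24.6 FPKM in normal gill. Its neighbour LOC110450543 had 22.3, 28.0 and 26.2 FPKM under hypoxia and 9.31, 9.58 and 10.8 FPKM in normal gill, so that the mean ratios were 2.61 and 2.58. LOC110447099 had 74.96, 63.5 and 26.5 FPKM under hypoxia and 10.7, 2.56 and 5.31 FPKM in normal gill. It lies beside LOC110447112, and the hypoxia libraries stood in opposite order in the pair.

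**Figure D5:**
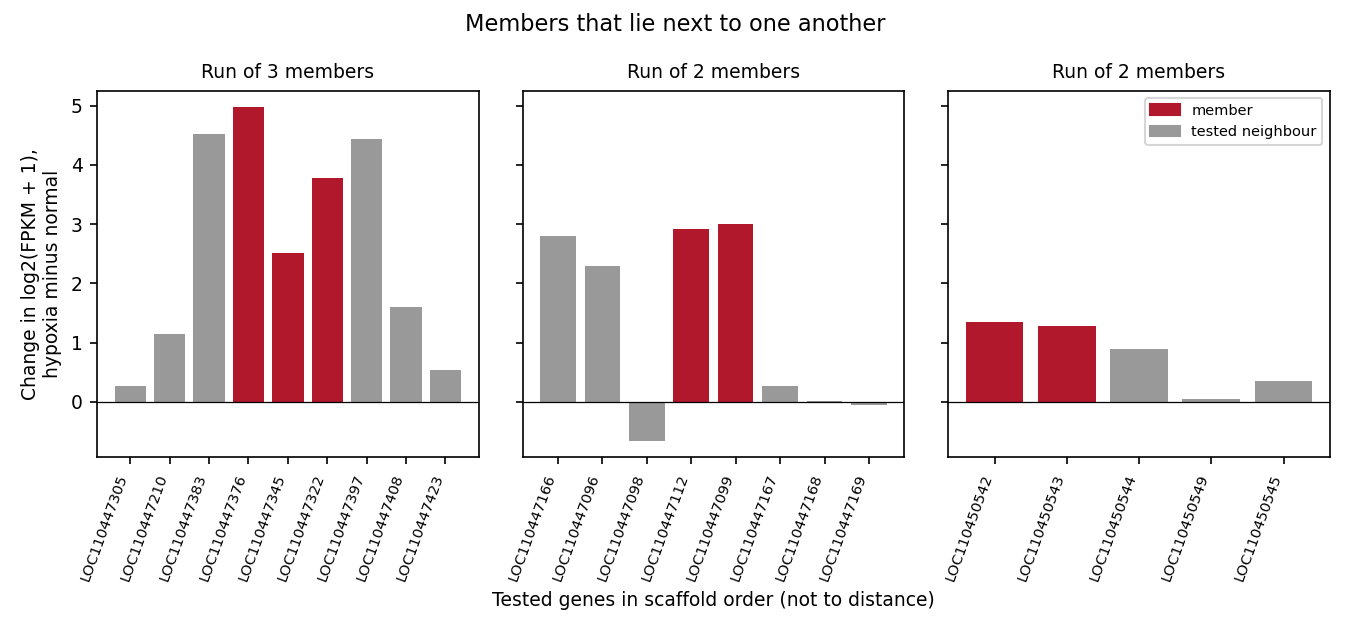
Change in log2(FPKM + 1), hypoxia minus normal (vertical), of the members in the 3 runs (red) and of up to 3 tested genes on either side (grey), in scaffold order. In the run of 3 the flanking genes LOC110447383 and LOC110447397 changed by 4.52 and 4.43, while the flanks of the second run of 2 lie between 0.04 and 0.89.

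Genes beside a member that are not members themselves were compared with all tested genes. The 163 such genes had a median log2 change of 0.15, and 63.2% had a change above 0. Among all tested genes that are not members the median was 0.03, and 53.4% lay above 0. By limma with Benjamini-Hochberg adjustment, 8 of the 163 were called higher (4.91%) and 0 lower, against 114 called higher among the tested genes that are not members (0.835%). LOC110447383 and LOC110447397 are 2 of the 8. Another of the 8, LOC110466745, had 9.58, 12.7 and 11.3 FPKM under hypoxia and 0.81, 0.21 and 0.15 FPKM in normal gill. Without neighbours whose span overlaps the member, 158 genes remained, with a median of 0.15 and 7 called higher. This comparison was likewise chosen after the data were seen.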

How the data were processed

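The deposited table holds expression as FPKM, computed by the authors, with a column per library. All 6 columns matched a sample's title. Reads went through HTSeq, HISAT2 and fastp in an order not stated, per the submitters' processing notes. No source used here states versions, settings, build, annotation or use of strand. Values were used as deposited. The members and lists were chosen with earlier results of these data known. Genes at 1 FPKM or more in at least 3 of 6 libraries were tested with limma 3.58.1 (limma-trend, R 4.3.3) on log2(FPKM + 1), two-sided, group only, with Benjamini-Hochberg adjustment. A pseudocount understates the change of low genes. Whole reads and exon lengths were recovered by seeking library totals, then lengths from 50 to 60000 bases, that make every count whole within 0.002 reads; 20813 of 20815 genes had a length. Of 500 control genes, a length was found for 100% with these totals and for 1.2% with altered ones. Recovered totals need not equal reads sequenced, and PCR copies are not independent molecules. The recovery of reads and the limma fit were also run on simulated data. For limma the simulated noise was independent between genes and libraries, so a scallop that stands apart over many genes was not modelled.

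Named members are the 12 with the widest gap, the 8 highest under hypoxia, runs of 3 or more, the 3 steadiest and 3 least steady under hypoxia, and those at the limit; others were named after their values were seen. Planned comparisons of proteins, promoters and product names were not run, since no sequences or product names were used here. Other steps used scipy 1.17.1, pandas 2.3.3 and numpy 2.4.6 under Python 3.11.15, and figures matplotlib 3.10.9.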

Additional observations from a re-analysis of the deposited data

How the results depend on the processing

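The number of genes that met the rule moved most without normal replicate 1. Leaving out 1 library gave 118 to 188 genes. All of the 97 were among them each time, because fewer values then have to clear the 2-fold limit, so nothing is read from that. A normal floor of 0.5 or 2 FPKM gave 119 and 72 genes, and median ratio scaling and quantile normalization gave 95 each, of which 93 and 89 were among the 97. The median log2 change of the members, 1.92, was 2.15 with a pseudocount of 0.1, 2.12 among the 83 members at a mean of 5 FPKM or more, and 2.17 with voom on the recovered reads, which was chosen after seeing the data; it ran from 1.85 to 2.10 with 1 library left out. The limma calls over all genes were 99 higher and 27 lower with every gene kept, 38 to 172 higher and 8 to 43 lower with 1 library left out. The members called ran from 32 to 81 with 1 library left out and stayed within 1.5 times the 89 under the filters, scalings, pseudocount and voom. A fit with replicate as block called 46 genes higher, 5 lower, and 33 members. The 46 are 0.335% of all genes tested, against 1.48% without the block, so the share of all genes moved as well. No label says that a number pairs scallops, and deviations from the group means correlated at 0.10, 0.01 and -0.09 within the 3 numbers. Some of these fits had fewer libraries or added terms. The cause of the shifts was not tested. Promoter windows and protein similarity were not run, for want of sequences here.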

Other observations

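The neighbourhood of LOC110447112 and LOC110447099 held further genes with large differences between scallops, singled out after their values were seen. LOC110447166 had 58.7, 40.4 and 24.0 FPKM under hypoxia and 18.6, 1.71 and 2.50 FPKM in normal gill, and LOC110447096 had 13.2, 14.4 and 6.40 FPKM under hypoxia and 3.13, 1.69 and 0.24 FPKM in normal gill. LOC110447098, which lies between them and the members, had 0.78, 2.72 and 1.79 FPKM under hypoxia and 40.6, 0.09 and 0.61 FPKM in normal gill. In these 5 genes normal replicate 1 was the highest normal library in each case.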
